A study of Drosophila melanogaster with 2 samples.

Results

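The aminoacyl-tRNA synthetases are the enzymes that join each amino acid to its transfer RNA, and 35 of the 13945 protein-coding genes on the fly's chromosome arms encode one by name. They were taken from the gene names of Ensembl release 115 (an amino acid name followed by RS, or by RS-m for a mitochondrial enzyme). No measured value entered this rule, but earlier results of these data were known when it was chosen. There were 20 cytoplasmic and 15 mitochondrial genes. Promoter binding was taken as a peak summit within 500 bp of any annotated start site of the gene. Binding of mod(mdg4) was measured by chromatin immunoprecipitation and sequencing (ChIP-seq) on whole Drosophila melanogaster, as wandering larvae in the third instar with the sexes pooled. The animals come from a stable transgenic line in which GFP is fused to the C-terminus of mod(mdg4), and the antibody was directed against GFP, so only tagged protein was measured. All samples belong to 1 group with 2 biological replicates, numbered 3 and 4, and there is no second genotype or treatment to compare. In whole larvae, strong binding in few cells and weak binding in many cells cannot be told apart.

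Every synthetase recognises its amino acid and the matching tRNAs, and the charged tRNA then carries the amino acid to the ribosome. Cytoplasmic enzymes serve the translation of nuclear genes, whereas the mitochondrial enzymes are encoded in the nucleus, imported, and serve the few messages of the mitochondrial genome. The catalytic domains fall into class I and class II, which are unrelated folds. In the fly, as in humans, GluProRS joins a class I and a class II enzyme in a single protein. A cytoplasmic and a mitochondrial gene were both present for 15 amino acids, and 5 (Gln, Gly, His, Lys and Thr) had no gene with the -m ending. In humans, a single gene makes both the cytoplasmic and the mitochondrial form of GlyRS and of LysRS. The protein mod(mdg4) is a BTB-domain protein that works at insulators together with zinc-finger proteins such as su(Hw).

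Binding at the starts of these genes was present at 5 cytoplasmic and at none of the 15 mitochondrial genes. The main list on dm6 holds the 6294 peaks kept by the irreproducible discovery rate (IDR) filter, and in it the bound genes were AlaRS, AsnRS, AspRS, GlyRS and HisRS, which encode the synthetases of alanine, asparagine, aspartate, glycine and histidine. This is 14.3% of the 35 genes, beside 18.7% of all protein-coding genes, so the family as a whole lay near the background. Of the cytoplasmic genes 25% had a peak (exact 95% binomial interval 8.66 to 49.1), and of the mitochondrial genes 0% (0 to 21.8). These intervals cover the number of genes only, and they overlap. The split follows gene names, and the bound GlyRS and HisRS belong to amino acids without a gene with the -m ending. Counting GlyRS, HisRS, LysRS and ThrRS with the mitochondrial genes gave 2 of 19 with a peak. No test over genes was made.

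**Figure D1:**
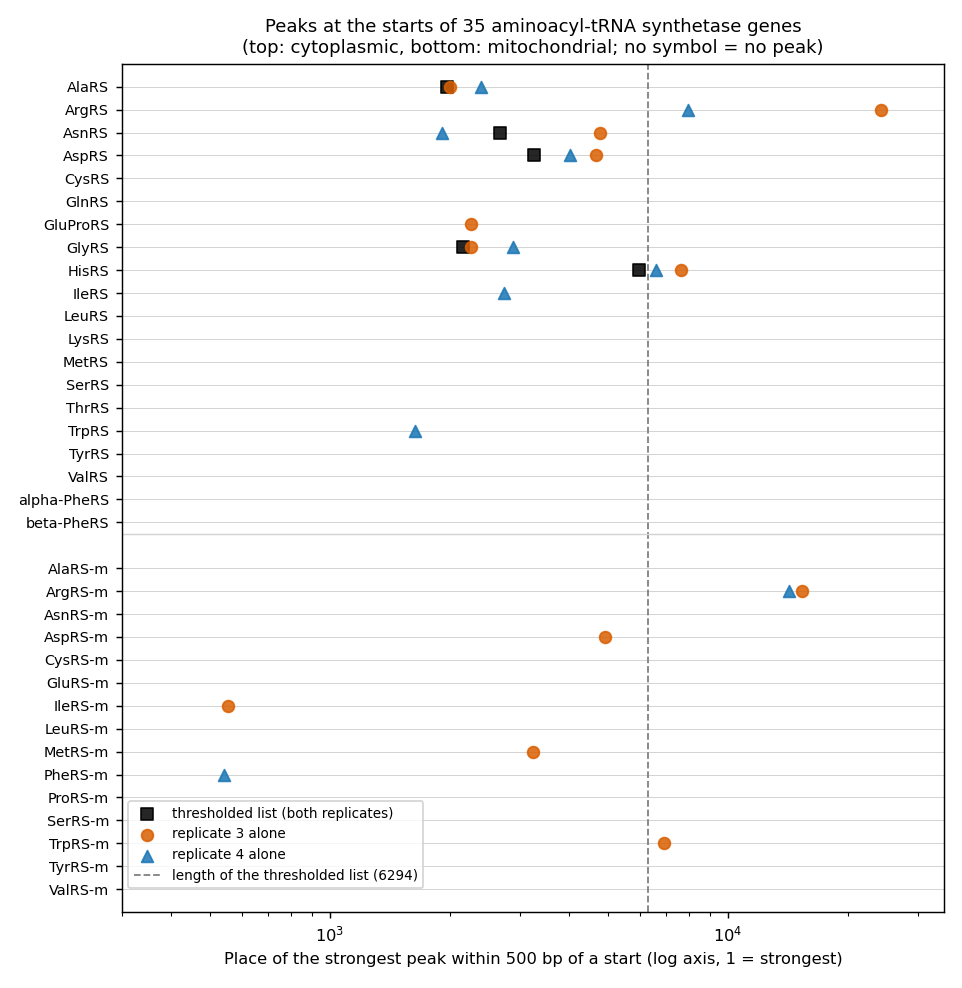
Each row is a gene, with the cytoplasmic enzymes above and the mitochondrial ones below. The x axis (log) gives the place of its strongest peak within 500 bp of a start in the thresholded list (squares), in replicate 3 alone (circles) and in replicate 4 alone (triangles), counted from the strongest peak, and the dashed line marks place 6294. AlaRS, AsnRS, AspRS and GlyRS have all 3 symbols left of the line, HisRS has its replicate symbols right of it, and 7 genes have a symbol of a single replicate left of it.

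The difference between the classes depended on the replicate. Among the strongest 6294 peaks of replicate 3, 5 cytoplasmic (25%) and 3 mitochondrial genes (20%) had a promoter peak, and the share of all genes was 19.6%. Among the strongest 6294 of replicate 4 there were 6 cytoplasmic (30%) and 1 mitochondrial gene (6.67%), beside 21.4% of all genes. The share of cytoplasmic genes was thus 5 percentage points higher in replicate 3 and 23.3 points higher in replicate 4, with an SD of 12.9 points over the 2 replicates, against 25 points in the thresholded list. When a summit was required among the strongest 6294 of each replicate, 4 genes (11.4%) were left, namely AlaRS, AsnRS, AspRS and GlyRS, beside 15.5% of all genes. All 4 are cytoplasmic.

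**Figure D2:**
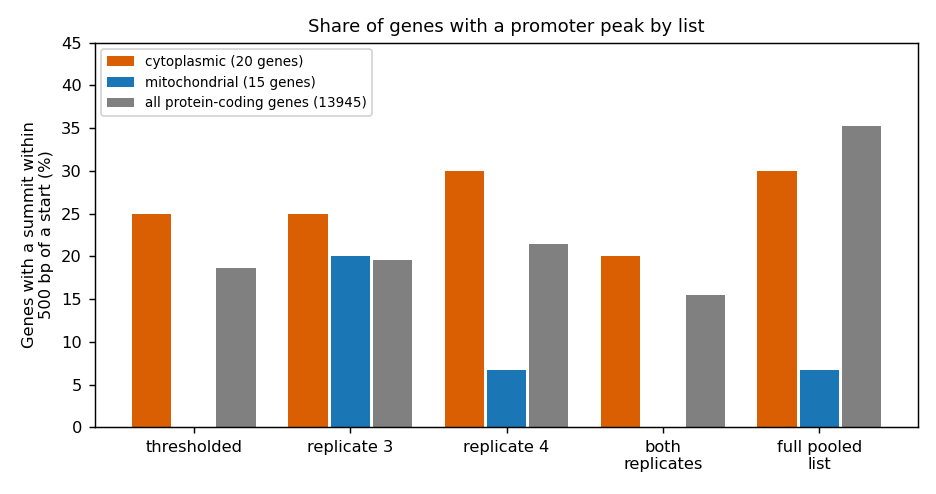
Bars give the percentage of genes with a summit within 500 bp of a start for the 20 cytoplasmic genes, the 15 mitochondrial genes and all 13945 protein-coding genes. The mitochondrial bar is at 0 in the thresholded list and where both replicates are required, but stands at 20% in replicate 3 and at 6.67% in replicate 4.

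The strongest promoter peak of the family was that of AlaRS (FBgn0027094, chr2L:8378262-8381764, minus strand), the alanine enzyme. Its peak at chr2L:8381607-8382022 had a signal of 245.7 in the thresholded list, where signal is the peak caller's own enrichment over a control library, as deposited by the authors, and has no replicate error within that list. It held place 1969 of 6294, and 58.1% of the 2613 genes with a promoter peak had a weaker strongest peak. The summit lay between genes, 51 bp upstream of the outermost AlaRS start, and no other protein-coding gene starts within 500 bp of it. In replicate 3 the signal was 149.9 (place 2001) and in replicate 4 it was 99.79 (place 2401). Each replicate list has a scale of its own, so the places are the values to compare, and here they lie close together.

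GlyRS (FBgn0027088, chr3L:15095142-15097686, plus strand), the glycine enzyme, had a pair of summits within 500 bp of its single start. The stronger one, at chr3L:15094697-15095112 with a signal of 231 (place 2162), lay 237 bp upstream, and the weaker one, at chr3L:15094915-15095330 with a signal of 119.3 (place 5910), lay 19 bp upstream. The intervals of these peaks overlap, and a further peak with its summit 965 bp upstream had a signal of 173.7. The stronger summit is nearer to the divergent starts of Plp, which encodes the centrosomal pericentrin-like protein, at 181 bp, and of sstn, at 186 bp. In replicate 3 the strongest GlyRS peak had a signal of 140.1 (place 2258), and in replicate 4 a signal of 89.5 (place 2884). The weaker summit was in the strongest 6294 peaks of replicate 3 (signal 83.61, place 5135), and no separate counterpart was in those of replicate 4.

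AsnRS (FBgn0086443, chr2L:19129469-19131954, minus strand), the asparagine enzyme, had a peak at chr2L:19131886-19132301 with a signal of 205.7 (place 2673). The summit lay 140 bp upstream of the single AsnRS start and 229 bp from the opposite start of DCTN6-p27, a dynactin subunit gene. The replicates placed it differently, with a signal of 87.89 at place 4786 in replicate 3 and of 111.8 at place 1911 in replicate 4. Their summits lay 75 and 167 bp upstream of the start.

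HisRS (FBgn0027087, chrX:18515428-18520445, plus strand), the histidine enzyme, was the weakest of the bound genes. Its peak at chrX:18515138-18515553 had a signal of 118.2 (place 5983), close to the lowest signal of the list, 113.2, and only 2.68% of the genes with a promoter peak had a weaker one. The summit lay 82 bp upstream of the only annotated HisRS start, which is at the same position as a start of Bx, a gene for a LIM-domain transcriptional cofactor, and CG6470 starts 479 bp from it on the other strand. In replicate 3 the signal was 63.07 (place 7635) and in replicate 4 it was 52.07 (place 6615), so neither replicate alone had it among its strongest 6294 peaks. A second thresholded summit lay inside HisRS, 1951 bp from the start, with a signal of 113.5 (place 6258). HisRS was the only member with a thresholded summit inside the gene and over 500 bp from its starts.

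The sequences below reach 100 bp to each side of the summits of these 4 genes and show what lies under peaks of the thresholded list. They are read 5′ to 3′ on the strand of the synthetase gene, from the RefSeq copy of the dm6 assembly. Capitals mark matches on either strand to any of 9 motifs. Matches were found to the DNA replication-related element (DRE, TATCGATA), the BEAF-32 element (CGATA), the letters of the TATA box (TATAAA) and the core of the su(Hw) site (TGCATA). GlyRS is shown at its weaker summit, the one nearer to its own start, which had a counterpart of its own among the strongest 6294 peaks of replicate 3 and none among those of replicate 4.
AlaRS, chr2L:8381715-8381915, minus strand: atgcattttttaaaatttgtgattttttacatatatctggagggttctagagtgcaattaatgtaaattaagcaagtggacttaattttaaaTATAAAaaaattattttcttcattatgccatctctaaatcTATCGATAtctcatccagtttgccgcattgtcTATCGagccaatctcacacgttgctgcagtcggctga
GlyRS, chr3L:15095023-15095223, plus strand: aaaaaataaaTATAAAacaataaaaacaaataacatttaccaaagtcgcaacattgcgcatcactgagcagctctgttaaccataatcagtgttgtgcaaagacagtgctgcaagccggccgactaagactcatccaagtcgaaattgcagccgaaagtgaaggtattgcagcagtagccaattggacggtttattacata
AsnRS, chr2L:19131994-19132194, minus strand: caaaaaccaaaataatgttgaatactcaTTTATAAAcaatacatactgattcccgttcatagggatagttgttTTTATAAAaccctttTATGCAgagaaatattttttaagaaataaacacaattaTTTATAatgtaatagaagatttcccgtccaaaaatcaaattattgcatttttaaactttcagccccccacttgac
HisRS, chrX:18515246-18515446, plus strand: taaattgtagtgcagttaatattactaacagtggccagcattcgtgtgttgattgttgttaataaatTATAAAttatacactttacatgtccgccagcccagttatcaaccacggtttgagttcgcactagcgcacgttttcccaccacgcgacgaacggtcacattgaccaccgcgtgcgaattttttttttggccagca

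The AlaRS window held the only DRE under a thresholded summit of the family, starting 32 bp downstream of the summit and 19 bp upstream of the AlaRS start, and every DRE match also contains the BEAF-32 element. The AsnRS window held a su(Hw) core, 12 bp upstream of the summit, and 5 overlapping or neighbouring TATA matches. The window at the stronger GlyRS summit held none of the 9 motifs. Over all 7 summits of the bound genes, 4 windows (57.1%) had a TATA match, beside 34.5% of the 2637 promoter summits of all genes, and 1 (14.3%) had the BEAF-32 element, beside 36.5%. The DRE (6.6% of all promoter summits) and the su(Hw) core (13.2%) were present in 1 window each, and GAGAG (30.9%) was present in 1, at AspRS. With 7 windows these shares are a description only. A match is not a bound site.

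AspRS (FBgn0002069, chr2R:12877004-12883168, plus strand), the aspartate enzyme, has 3 annotated start positions and carried separate summits at different ones. The stronger peak, at chr2R:12876353-12876768 with a signal of 182 (place 3260), had its summit 443 bp upstream of the outermost start and nearer, at 168 bp, to a start of Lfg, a gene on the other strand. The weaker peak, at chr2R:12879857-12880272 with a signal of 139.2 (place 4847), lay 219 bp upstream of an internal start and 165 bp from a start of Nmda1. Lfg and Nmda1 encode related membrane proteins. Both summits lay in introns, and in each case the neighbour's start was nearer than that of AspRS. In replicate 3 the strongest AspRS peak (signal 89.13, place 4676) was the upstream one, and in replicate 4 it was the internal one (signal 73.06, place 4018), with the upstream peak close behind at 71.27 (place 4166).

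**Figure D3:**
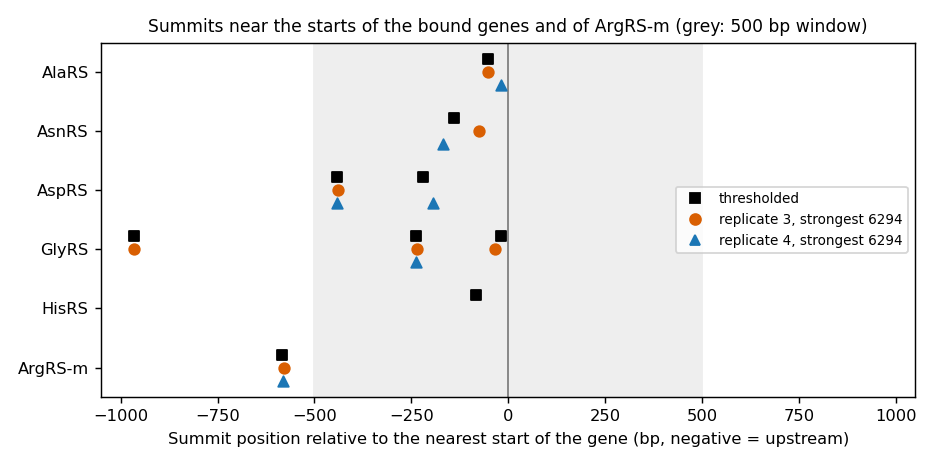
Summit positions in bp relative to the nearest start of each gene, in the direction of transcription, for the 5 bound genes and ArgRS-m, with the window of 500 bp in grey. Symbols show the thresholded list (squares) and the strongest 6294 peaks of replicate 3 (circles) and replicate 4 (triangles). All summits shown lie upstream of the start, and the ArgRS-m summits lie just outside the window, at 583, 579 and 582 bp.

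The mitochondrial gene closest to a call was ArgRS-m (FBgn0037526, chr3R:7887045-7890150), the mitochondrial arginine enzyme. A thresholded peak of 337.4 (place 1120), stronger than any peak at a bound member, had its summit 583 bp upstream of the ArgRS-m start and thus outside the window. It lay in the 5′ UTR of CG17816, a divergent neighbour with a start 271 bp away, and was present in both replicates (signal 219.9 at place 969 and 122.8 at place 1624). With a window of 1000 bp, ArgRS-m was added and 6 of 35 genes (17.1%) had a peak, beside 22.6% of all genes. With 250 bp, the same 5 cytoplasmic genes as at 500 bp were called, beside 14.9% of all genes. Nearer to its own start ArgRS-m had only weak peaks of the pooled list, the stronger with a signal of 53.17 (place 16328) and its summit 46 bp upstream. The cytoplasmic arginine gene ArgRS had a pooled peak of 94.56 (place 7987), 265 bp from its start and 66 bp from that of CG8578, which did not pass the threshold.

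All 5 bound genes encode class II enzymes. Of the 10 cytoplasmic class II genes 50% had a promoter peak (exact 95% interval 18.7 to 81.3), and of the 9 cytoplasmic class I genes 0% (0 to 33.6), with GluProRS counted in neither. The share of all protein-coding genes was 18.7%. The classes also differed in their starts, with a single annotated start at 50% of the cytoplasmic class II genes and at 88.9% of class I. Over all genes, those with 1 start had a peak less often (13%). Among the bound genes, however, AsnRS, GlyRS and HisRS have 1 start, AlaRS has 2 and AspRS has 3. A link between the number of starts and the class difference was not tested. In replicate 3 the counts were 4 class II and 0 class I genes, beside 19.6% of all genes. In replicate 4 they were 4 and 2, beside 21.4% of all genes, and the class I genes were IleRS and TrpRS. The class II genes without a thresholded peak were LysRS, SerRS, ThrRS, alpha-PheRS and beta-PheRS, the last 2 being the subunits of the phenylalanine enzyme. The class I genes without one were ArgRS, CysRS, GlnRS, IleRS, LeuRS, MetRS, TrpRS, TyrRS and ValRS. None of the 6 mitochondrial class II genes (AlaRS-m, AsnRS-m, AspRS-m, PheRS-m, ProRS-m and SerRS-m) had a thresholded peak, and none of the 9 of class I did (ArgRS-m, CysRS-m, GluRS-m, IleRS-m, LeuRS-m, MetRS-m, TrpRS-m, TyrRS-m and ValRS-m). The class difference was not tested, and the intervals of the classes overlap.

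Among mitochondrial genes, the strongest peaks at starts were each seen in a single replicate only. IleRS-m (FBgn0036569), the mitochondrial isoleucine enzyme, had a peak at chr3L:16100099-16100285 in replicate 3, with its summit 64 bp upstream of the start and a signal of 287.8 at place 555, a higher place than any bound member had. No peak of replicate 4 or of the pooled list, each with 29999 peaks, overlapped it by even 1 bp. The same held for MetRS-m (methionine, signal 112.6, place 3245) and AspRS-m (aspartate, signal 86.15, place 4911), whose replicate 3 summits lay 13 bp downstream and 54 bp upstream of a start. TrpRS (FBgn0010803, chr3R:9265027-9266904), the cytoplasmic tryptophan enzyme, showed the mirror case. Its peak of 122.4 (place 1635) in replicate 4 lay 68 bp upstream of the start and 47 bp from the opposite start of Vps16A, a vacuolar trafficking gene, and overlapped no peak of replicate 3 or of the pooled list. The windows under these unmatched peaks of IleRS-m and TrpRS are shown for comparison with the thresholded ones above, with the same marking, to which the GAGA sequence (GAGAG) is added. The IleRS-m window held a TATA match, and that of TrpRS a DRE and a GAGA sequence.
IleRS-m, chr3L:16100116-16100316, plus strand: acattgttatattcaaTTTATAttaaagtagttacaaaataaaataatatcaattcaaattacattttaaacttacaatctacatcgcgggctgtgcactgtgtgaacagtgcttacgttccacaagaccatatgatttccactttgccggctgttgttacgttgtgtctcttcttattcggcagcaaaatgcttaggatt
TrpRS, chr3R:9266872-9267072, minus strand: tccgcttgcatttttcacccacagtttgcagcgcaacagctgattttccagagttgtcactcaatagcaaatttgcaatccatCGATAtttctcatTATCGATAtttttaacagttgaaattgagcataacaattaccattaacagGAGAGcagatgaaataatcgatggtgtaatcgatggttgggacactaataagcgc

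The remaining genes of this kind were GluProRS and IleRS, both cytoplasmic, and PheRS-m. GluProRS (glutamate and proline) had a replicate 3 peak of 140 (place 2262) 150 bp upstream of a start, and AP-1sigma, a clathrin adaptor gene, starts 110 bp from the summit. IleRS (isoleucine) had a replicate 4 peak of 92.46 (place 2738) 111 bp upstream of the start, and Hem, a gene for a regulator of actin assembly, starts 359 bp from the summit. PheRS-m (phenylalanine) had one of 202.8 (place 542) 163 bp upstream, a place higher than that of any bound member. In all, 11 synthetase genes had a promoter peak among the strongest 6294 of at least 1 replicate, 4 in both and 7 in a single one (63.6%). Of all 13945 protein-coding genes, 3552 had one in at least 1 replicate, and 39.2% of these in a single one. All 7 synthetase genes called in a single replicate lacked an overlapping peak in the other replicate and in the pooled list. They make up 4 of the 8 genes called in replicate 3 (50%) and 3 of the 7 called in replicate 4 (42.9%). Over all protein-coding genes the corresponding shares were 6.29% of 2733 genes and 11.2% of 2979 genes. The mitochondrial calls of the single replicates, 3 in replicate 3 and 1 in replicate 4, are all of this kind. The pattern was noticed after the values were seen, and its cause was not tested.

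**Figure D4:**
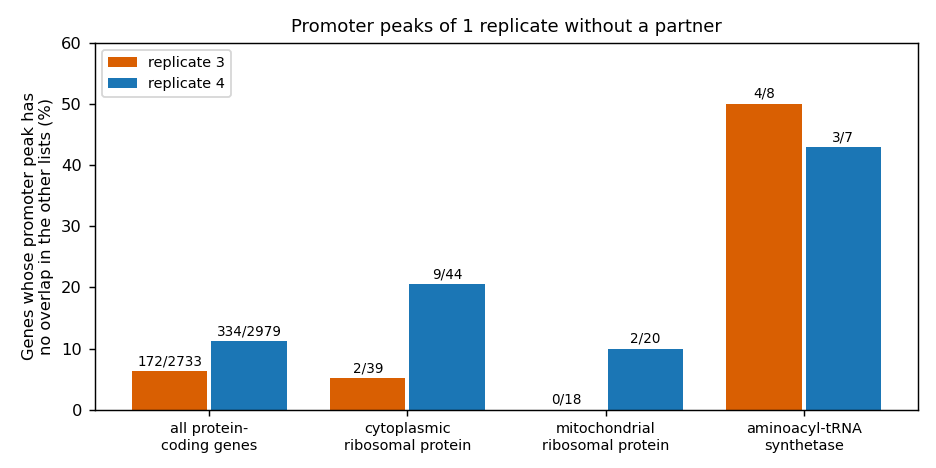
Bars give, for each replicate, the percentage of genes with a promoter peak among its strongest 6294 whose peak overlaps no peak of the other replicate or of the pooled list, with the counts above. The synthetase bars are at 50% (4 of 8) and 42.9% (3 of 7), those of cytoplasmic ribosomal protein genes at 5.13% and 20.5%, and those of mitochondrial ribosomal protein genes at 0% and 10%.

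Below the threshold there was little further signal at these genes. In the full pooled list, which includes background, 7 of 35 genes (20%) had a summit within 500 bp, beside 35.3% of all genes. The genes added to the 5 bound ones were ArgRS and ArgRS-m, and the other 28 had no pooled peak at any start. These 28 include the 7 genes with the single-replicate peaks given above. TrpRS-m, also among them, had a weak peak in replicate 3 alone (signal 67.68, place 6897). In the full pooled list, 30% of the cytoplasmic genes and 6.67% of the mitochondrial genes had a summit within 500 bp. Among the strongest 12588 pooled peaks, 6 genes were called, all cytoplasmic, beside 25.9% of all genes. Among the stronger 3147 thresholded peaks, 3 were called, AlaRS, AsnRS and GlyRS, beside 11.8% of all genes. The strongest peaks of the 5 bound genes had a median signal of 205.7, with a range of 118.2 to 245.7. Over all 2613 genes with a promoter peak the median was 217.3 and the quartiles were 159.1 and 338.3, so none of the 5 reached the upper quartile.

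Starts on the opposite strand were frequent near the starts of these genes. The count did not require the 2 genes to point away from each other. A start of another protein-coding gene on the opposite strand lay within 500 bp of a start for 22 of the 35 genes (62.9%), beside 27.8% of all genes. The share was 75% for cytoplasmic and 46.7% for mitochondrial genes. It is not particular to the synthetases, since 72.6% of the mitochondrial and 39.1% of the cytoplasmic ribosomal protein genes had such a neighbour. Among the 22, 3 had a promoter peak (13.6%), beside 23.2% of all genes with such a neighbour. Among the other 13, 2 had one, AlaRS and HisRS (15.4%), beside 17% of all genes without. A single annotated start was present at 26 genes, of which 3 (11.5%) had a peak, beside 13% of such genes. All 3 (AsnRS, GlyRS and HisRS) are among the 13 cytoplasmic genes with 1 start, and none is among the 13 mitochondrial ones. With outermost starts only, the 5 genes were the same, beside 16.5% of all genes. Where the gene's own start had to be the nearest to the summit, ties included, AspRS was lost and 4 remained (11.4%), beside 15.8% of all genes. AspRS was also lost, again leaving 4, when the peak itself had to overlap a start by at least 1 bp, beside 12.4% of all genes.

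In the 300 bases around the outermost starts (250 before and 50 after), the BEAF-32 element was present at 23 of 35 synthetase genes (65.7%), beside 47.4% of all protein-coding genes. Its share was 75% among cytoplasmic and 53.3% among mitochondrial genes, and it was at 4 of the 5 bound genes (80%). The DRE was found at 5 genes (14.3%, beside 9.36% of all genes), namely AlaRS, ArgRS, IleRS, TrpRS and PheRS-m. Of these, AlaRS alone had a thresholded peak, ArgRS had the weaker pooled peak, and IleRS, TrpRS and PheRS-m had the unmatched peaks of replicate 4. Motif 1 (GGTCACACT), a promoter sequence bound by M1BP, was at 5 genes (14.3%, beside 6.05%), none with a thresholded peak. They were GlnRS, beta-PheRS, AsnRS-m, AspRS-m and ProRS-m. The share with a peak was not counted over all genes that hold a DRE or Motif 1. The peaks listed for these few genes are thus a description only, and a link to either motif was not tested. The su(Hw) core was at 5 genes (14.3%, beside 15.4%), all cytoplasmic, and of these AsnRS had a thresholded peak. A TATA match was at all 5 bound genes and at 54.3% of the family, beside 45.8% of all genes. Any position in the 300 bases and either strand counted, so a match need not be a working TATA box. At the bound genes the matches began between -213 bp (AspRS) and -59 bp (AlaRS) from the outermost start, where negative is upstream. GAGAG was at 6 genes (17.1%, beside 29.7%), the E-box (CACGTG) at 2 (5.71%, beside 4.2%) and the CTCF core (AGNNGGCGC) at 2 (5.71%, beside 2.82%). The site read by ATF4 (TGATGCAAT) was at none, and 0.194% of all promoters held it. The 300 bases had a median of 35.3% G and C, beside 38% for all genes.

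For the 30 unbound genes, the nearest thresholded summit was a median of 7343 bp from a start. Over all 35 it was 6602 bp, beside 7475 bp for all protein-coding genes, and the median was 6454 bp for cytoplasmic and 9846 bp for mitochondrial genes. Apart from ArgRS-m, the unbound genes nearest to a summit were AspRS-m, 1832 bp downstream of a summit at the start of Cse1 (signal 118.2), and alpha-PheRS. The alpha-PheRS summit (signal 327, place 1178) lay 1844 bp downstream of its start, beyond the gene's end, and 77 bp from the start of its neighbour CG17982. The strongest of the nearest peaks was that of AlaRS-m, at 6602 bp, with a signal of 1196.4 (place 57) between the starts of Tcs5 and CHMP2B, and the next was that of LysRS, at 8496 bp, with 657.5 (place 280). The most isolated genes were those of the serine enzymes, SerRS at 57066 bp and SerRS-m at 47462 bp. A distance over 10000 bp was found for 12 genes (34.3%), beside 43% of all genes.

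**Figure D5:**
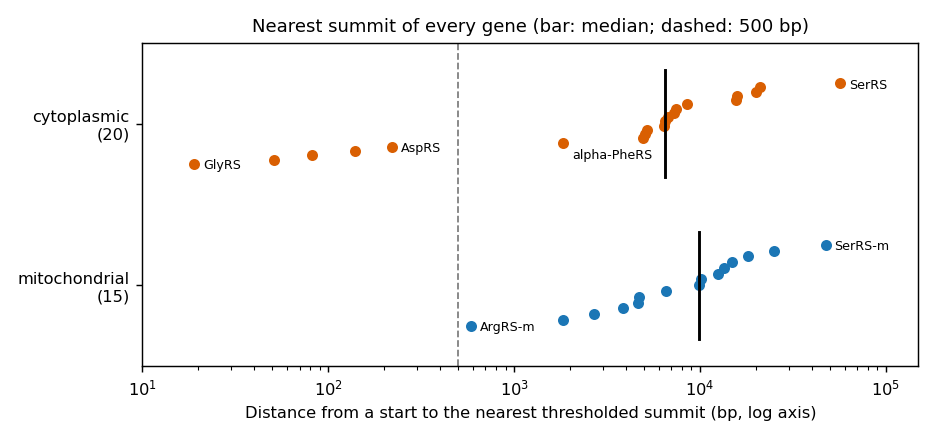
Each point is a gene, placed by the distance from any of its starts to the nearest thresholded summit (bp, log axis), with a bar at the median and a dashed line at 500 bp. The 5 bound cytoplasmic genes lie left of the line at 19 to 219 bp, and the nearest mitochondrial gene, ArgRS-m, is at 583 bp.

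Genes that work beside the synthetases were mostly unbound. Of 13 such genes, 2 (15.4%) had a promoter peak, beside the 18.7% of all genes. The first was eEF1alpha1 (signal 335, place 1130), which encodes the main elongation factor that carries charged tRNAs to the ribosome, and which held places 1780 and 810 in replicates 3 and 4. The other was crc (signal 155.4, place 4093), the fly ATF4, a transcription factor of the amino acid stress response. Its replicate 4 peak (place 4297) overlapped the thresholded one, whereas the strongest crc peak of replicate 3 (place 4266) was a different one, at another start of the gene. No thresholded promoter peak was found at AIMP1, AIMP2 or AIMP3, the scaffold proteins of the multisynthetase complex, or at GatA, GatB or GatC, the amidotransferase that makes glutaminyl-tRNA in mitochondria. None was found at Slimp, a mitochondrial relative of SerRS, at eEF1alpha2, mEFTu1 or mEFTu2, the other carriers of charged tRNA, or at Gcn2, the kinase that senses uncharged tRNA. Among the larger translation families, 36 of 92 cytoplasmic ribosomal protein genes (39.1%, exact 95% interval 29.1 to 49.9) and 15 of 73 mitochondrial ones (20.5%, 12 to 31.6) had a promoter peak. The interval of the 35 synthetase genes was 4.81 to 30.3%, and it overlaps each of these.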

How the data were processed

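ChIP-seq peaks of tagged mod(mdg4) were taken as deposited, in narrowPeak layout without a header. Per the labels, chromatin was sonicated to 200 to 800 bp. Per the file notes, peaks and background were called on dm6 in each replicate and in the pooled reads against a control library, and the thresholded list was derived from these. The peak caller and the IDR threshold were not given in the sources used here. Signal per peak is the authors' deposited value, and the deposited summit offset is the other value used, in bp from the peak's start. The lists give no read counts, so depth is unknown, and intervals on shares of genes cover the number of genes only.

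Summits were placed on dm6 coordinates counted from 1 and matched to starts of all transcripts of protein-coding genes (Ensembl release 115). The annotation and the RefSeq sequence were checked against each other: all 35 genes read ATG at their annotated start codons. Where several summits lay within 500 bp of a start, the strongest gave the gene's value. Replicate lists were limited to their strongest 6294 peaks. The matching of peaks to genes was tested on simulated data. The members were set by gene name and not by a measured value. Earlier results of these data were known when the members, the lists and the related genes were chosen. No test over genes was made. All members are named, with the genes that start near their summits. Alternatives were other windows, starts, list lengths and single replicates. The dm3 lists were not used here. Computations used Python 3.11.15, NumPy 2.4.6, pandas 2.3.3, SciPy 1.17.1 and matplotlib 3.10.9.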

Additional observations from a re-analysis of the deposited data

How the results depend on the processing

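No setting made the share of mitochondrial genes exceed that of cytoplasmic genes, but not every setting could have done so. With a mitochondrial count of 0, settings that only remove calls from the thresholded list had to return 0 again. These were the smaller window, the limits on starts and the stronger peaks. Among the settings that could add mitochondrial genes, replicate 3 gave shares of 25% for cytoplasmic and 20% for mitochondrial genes. The number of synthetase genes with a promoter peak was 5 of 35 in the thresholded list, beside 18.7% of all genes. It was 3 when restricted to the 26 genes with 1 start (11.5%, beside 13% of all such genes). Among the stronger 3147 peaks it was also 3 (8.57%, beside 11.8% of all genes). The cytoplasmic count was 3 in each of these as well. Leaving out a replicate gave 7 to 8 synthetase genes, 5 to 6 cytoplasmic and 1 to 3 mitochondrial ones, and a difference of 5 to 23.3 percentage points. The share of all genes was 19.6% in replicate 3 and 21.4% in replicate 4. It was replicate 3 alone that gave the 5 points, the 8 genes and the 3 mitochondrial ones. The mitochondrial count of 0 became 1 (6.67%) within 1000 bp, beside 22.6% of all genes, and 1 in the full pooled list, beside 35.3%. It became 2 of 19 when GlyRS, HisRS, LysRS and ThrRS, for which no gene with the -m ending was found, were counted with the mitochondrial class. The median signal of the 5 bound genes was 1.11 times the median of the thresholded list, and 0.776 to 1.06 times the median of the strongest 6294 peaks in a single replicate. The requirement of both replicates and the full pooled list were chosen after seeing the data. With so few genes, 1 gene is 5 points of the cytoplasmic share. No paired analysis was possible because there is 1 group.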

Other observations

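The promoter peaks without a partner were described over the whole genome after they had been seen at the synthetase genes. Of the strongest 6294 peaks, those on the arms that overlapped no peak of the other replicate or of the pooled list numbered 147 of 6274 (2.34%) in replicate 3 and 332 of 6270 (5.3%) in replicate 4. In replicate 3, 124 of the 147 (84.4%) lay with the summit at most 500 bp from a protein-coding start, beside 42.3% of the other peaks. In replicate 4 it was 247 of 332 (74.4%), beside 44.1%. Windows of 100 bp to each side of their summits had a median of 32.3% G and C in replicate 3, beside 35.8% at the other peaks, and of 35.3% beside 37.3% in replicate 4. The cause of this was not tested.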
